A study of Homo sapiens with 10 samples.

Results

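The genes described here are 36 genes of the integrated stress response, chosen by name as a list of amino acid and stress genes driven by the transcription factor ATF4, out of 58884 genes in the count tables. All 36 were found by their Ensembl identifiers. Of these, 34 had enough counts to be tested between the cell lines. VLDLR, a lipoprotein receptor, had 42 counts in the 10 libraries together, and CBS, an enzyme that makes cystathionine from homocysteine, was listed at 0 in all 10 libraries. CBS is known to have a near-identical copy in hg38, and reads of low mapping quality were removed before counting, so this 0 gives no expression level.

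The integrated stress response begins when stress kinases phosphorylate the initiation factor eIF2. Most translation then slows, while the ATF4 message is translated more, so ATF4 protein is controlled largely after transcription. ATF4, often paired with C/EBP family proteins, switches on genes for amino acid synthesis, uptake and tRNA charging, and also DDIT3 (CHOP), TRIB3 and other genes of the late response. Amino acid shortage, unfolded protein in the endoplasmic reticulum, haem shortage and double-stranded RNA are known triggers, and in cultured carcinoma cells the nutrients left in the medium are a known influence.

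RNA was measured in HCT116, a human colorectal carcinoma line with wild-type DNMT1, and in DNMT1 KO cells derived from it. The DNMT1 KO line carries a deletion of exons of DNMT1, the maintenance DNA methyltransferase gene, and still makes a small amount of shortened DNMT1, so it is a hypomorph, and all its libraries come from the same published line, in which the allele and any other change of the line cannot be told apart. Both lines grew in McCoy's medium with fetal calf serum and antibiotics, with no other treatment, and the study calls the replicates independent cultures. The 6 HCT116 libraries were replicate 1 (batch 1), replicates 2 and 3 (batch 2) and replicates 7, 8 and 9 (batch 4), and the 4 DNMT1 KO libraries were replicate 1 (batch 1), replicates 2 and 3 (batch 2) and replicate 4 (batch 3). The labels number the batches without saying what they stand for. Batches 3 and 4 each held only 1 of the lines here.

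ATF4 with a C/EBP partner is known to bind a composite element whose core can be written TGATGNAA. Stretches of 6 member promoters that hold these letters are shown because this element is what the list is built around and the letters were read without use of the counts. They come from the RefSeq table on GRCh38.p14, run 5′ to 3′ on the gene's strand, end at the latest at the annotated start site, and have the match in capitals. The CHAC1 stretch holds the letters on the opposite strand and the others hold them on the gene's strand.
ASNS, chr7:97872439-97872506, minus strand: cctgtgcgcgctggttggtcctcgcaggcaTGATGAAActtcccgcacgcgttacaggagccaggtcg
ATF3, chr1:212565186-212565253, plus strand: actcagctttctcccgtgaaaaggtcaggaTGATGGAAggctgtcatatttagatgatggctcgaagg
CEBPG, chr19:33374041-33374108, plus strand: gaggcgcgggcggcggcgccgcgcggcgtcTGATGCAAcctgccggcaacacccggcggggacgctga
CHAC1, chr15:40953232-40953299, plus strand: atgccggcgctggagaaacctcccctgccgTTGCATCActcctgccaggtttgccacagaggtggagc
JDP2, chr14:75427976-75428021, plus strand: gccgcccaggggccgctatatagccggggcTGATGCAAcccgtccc
SLC1A5, chr19:46784874-46784941, minus strand: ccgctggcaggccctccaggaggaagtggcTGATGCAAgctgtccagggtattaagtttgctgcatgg

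A promoter window here was the 250 bases before and 50 bases after a start site, and 30 of the 36 members had at least 1. TGATGNAA, searched on both strands, lay in a window of 9 of the 30 members, the 6 shown and GARS1, SLC3A2 and SLC7A1. It lay in a window of 4.46% of all 27305 genes with one. Counted by window, 9 of 50 member windows (18.0%) and 3.62% of all 35116 windows held it. The letters in CEBPG, JDP2 and SLC1A5 were the same TGATGCAA, which in CHAC1 was read on the other strand. A match is a description of the sequence, and the windows leave out elements that lie elsewhere, such as in introns.

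The HCT116 libraries held 35418732 to 85991812 counts each and the DNMT1 KO libraries 26700853 to 55732013. DNMT1, the targeted gene, was lower in every DNMT1 KO library (14.1 to 22.3 CPM, counts scaled to a common library size after TMM adjustment of the totals) than in every HCT116 library (89.8 to 263 CPM), with a log2 fold change of -2.97 (SE 0.33, edgeR adjusted p = 1.74e-05). Of 10 colon epithelial markers, 8 reached 1 CPM, and LGALS4 and CEACAM5 stayed under 1 CPM in every library. Their summed level was 2687 to 6560 CPM in HCT116 and 703 to 1522 CPM in DNMT1 KO, and 5 of the 8 tested were called lower in DNMT1 KO (6.49% of all genes were), among them CDH1, CLDN4 and KRT8. CDH1, CLDN3 and CLDN4 were also called lower in HCT116 batch 4 than in batch 2. Fibroblast markers summed to 6.50 to 19.8 CPM in HCT116 and 16.6 to 21.4 CPM in DNMT1 KO, immune markers to at most 0.936 and 2.83 CPM, and endothelial markers to at most 1.80 and 6.11 CPM. Among the other-cell markers tested, 3 of 4 fibroblast, 1 of 1 immune and 2 of 3 endothelial genes were called higher in DNMT1 KO (7.42% of all genes were). The part of these markers in the members' values was not tested. In bulk RNA, fewer cells of a type and less RNA per cell cannot be told apart.

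Across all 10 libraries, 3 stood apart as high for the members: HCT116 replicates 2 and 3 and DNMT1 KO replicate 3, all of batch 2. The median member lay 1.47 and 1.23 above its own 10-library mean of log2 CPM in the HCT116 libraries and 0.54 above it in the DNMT1 KO library. HCT116 replicate 1 followed at 0.26. The 6 other libraries lay between -0.68 and -0.28, and DNMT1 KO replicate 2, also of batch 2, was among them at -0.66. Over all genes tested, the same median stayed between -0.03 and 0.05 in each library, where the TMM scaling itself holds it near 0. The heat map of the members thus shows shifts relative to the bulk of genes.

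**Figure D1:**
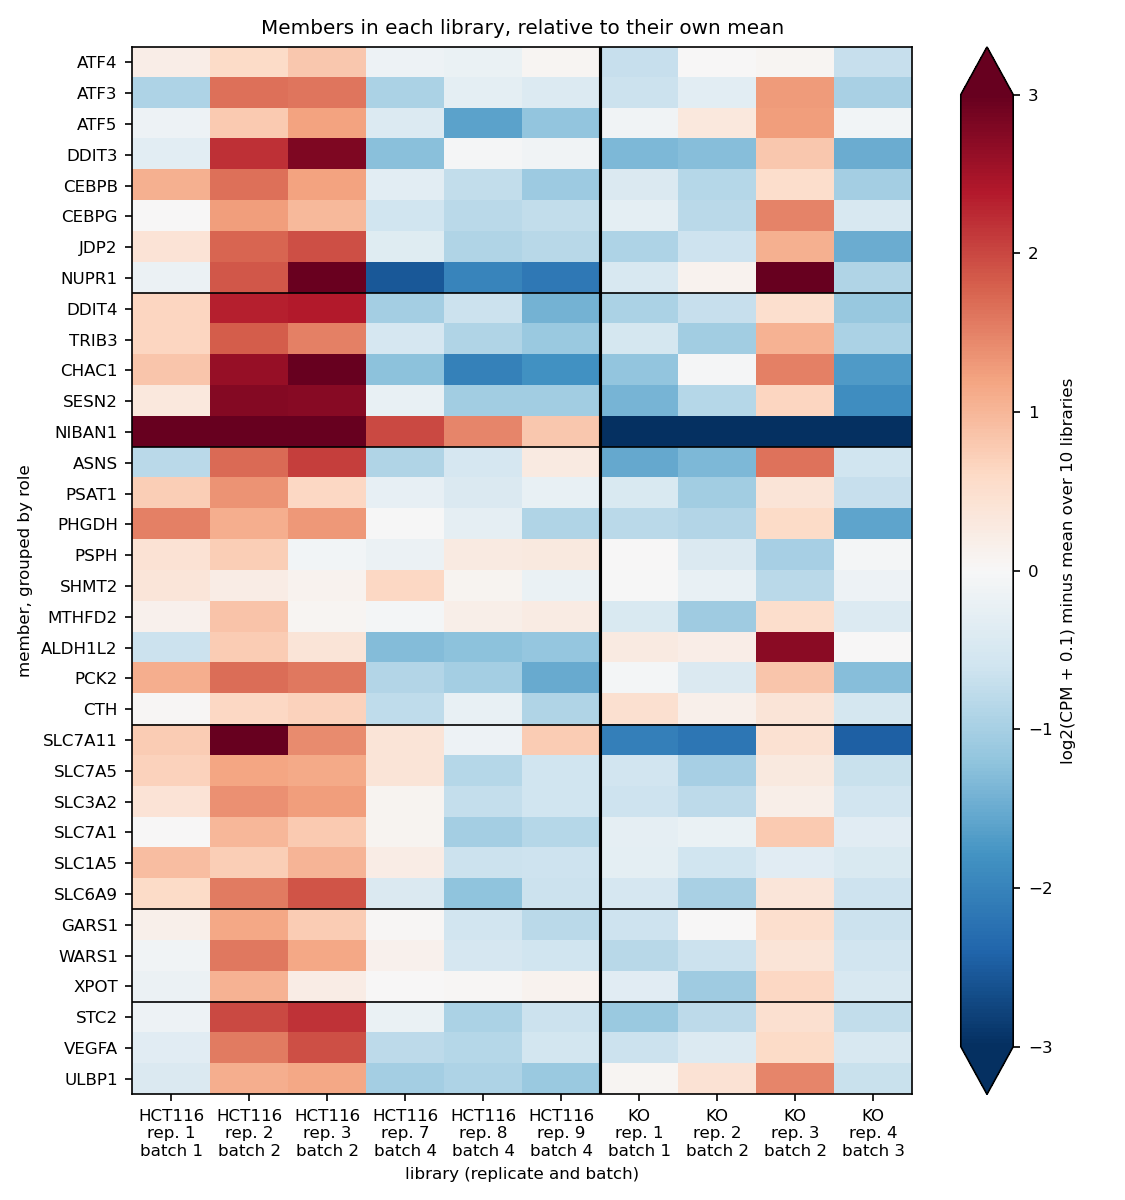
Each row is 1 of the 34 members tested, grouped by role with lines between roles, and each column is 1 library with its replicate and batch. The colour is log2(CPM + 0.1) minus the member's mean over the 10 libraries, with the scale ending at -3 and 3. The 3 columns with the most red are HCT116 replicates 2 and 3 and DNMT1 KO replicate 3. HCT116 replicate 1 follows, with 23 of 34 members above their own mean of log2 CPM. NIBAN1 is dark blue in the 4 DNMT1 KO libraries.

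The members differed strongly among libraries of HCT116 itself. In an edgeR quasi-likelihood fit of the 6 HCT116 libraries with batch as a factor, 29 of 35 members tested were called different among batches 1, 2 and 4 (adjusted p under 0.05 and a range above 1 on the log2 scale), beside 16.1% of all genes. Between the batches that had more than 1 HCT116 library, 29 of 35 members were called lower in batch 4 than in batch 2, beside 8.4% of all genes, and 0 of 35 were called higher, beside 8.72%. At an unadjusted p under 0.05 the edgeR fit held 1 member as higher, the nearly silent VLDLR (adjusted p = 0.140), and DESeq2 also called 0 members higher. The median member was at -2.002 on the log2 scale, and the median of all genes was 0.06. Both batch 2 libraries lay above the other 4 HCT116 libraries for 28 of the 34 members tested between the lines, beside 17.3% of all genes. The fit left 3 residual degrees of freedom, and batch, culture and library preparation cannot be told apart within it.

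Among the 8 transcription factors of the list, 7 were called lower in HCT116 batch 4 than in batch 2, with a median log2 fold change of -2.15. ATF4, the central factor, was at 685 CPM in replicate 1, 883 and 1040 CPM in batch 2, and 540, 519 and 624 CPM in batch 4. Its batch 2 libraries were the highest, but its log2 fold change between batches 4 and 2 was only -0.79 (SE 0.35), which did not pass the test (edgeR adjusted p = 0.119). With DESeq2 it was also -0.79, at an adjusted p of 0.0354, short of the change of more than 1 needed for a call. ATF3, a stress-induced factor that can repress its targets, was at 26.0 CPM in replicate 1, 157 and 151 CPM in batch 2, and 25.7, 40.4 and 37.2 CPM in batch 4. The batch 2 libraries stood clear of the other 4, and ATF3 fell by 2.17 on the log2 scale from batch 2 to batch 4 (SE 0.32, edgeR adjusted p = 1.10e-04).

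DDIT3, which encodes CHOP, a factor linked to cell death under prolonged stress, was at 18.6 CPM in HCT116 replicate 1, 105 and 161 CPM in batch 2, and 9.53, 22.5 and 21.5 CPM in batch 4. Replicate 1 lay inside the range of batch 4, and the batch 2 libraries lay above both (log2 fold change of batch 4 against batch 2 of -2.92, SE 0.37, edgeR adjusted p = 2.50e-05). NUPR1, a small chromatin-bound stress protein, was at 1.55 CPM in replicate 1, 6.68 and 14.5 CPM in batch 2, and 0.223, 0.372 and 0.325 CPM in batch 4. It had the widest range of the members called, at -5.12 (SE 0.46, edgeR adjusted p = 4.07e-07), with replicate 1 between the other batches. The partners CEBPB and CEBPG, the AP-1 repressor JDP2 and ATF5, a factor translated like ATF4, had log2 fold changes of -2.14, -1.84, -2.55 and -2.002.

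All 5 stress effectors were called lower in HCT116 batch 4 than in batch 2, with a median log2 fold change of -3.48, the lowest median of the 6 roles. CHAC1, which degrades glutathione, was at 70.9 CPM in replicate 1, 245 and 322 CPM in batch 2, and 16.8, 9.67 and 11.3 CPM in batch 4. The 3 batches did not overlap, and the difference between batches 4 and 2 was -4.51 (SE 0.37, edgeR adjusted p = 9.85e-08), a ratio of batch means of 22.6. DDIT4 (REDD1), an inhibitor of mTORC1, was at 84.7 CPM in replicate 1, 275 and 282 CPM in batch 2, and 26.9, 35.1 and 20.5 CPM in batch 4. Its batches were likewise separate, at -3.35 (SE 0.35, edgeR adjusted p = 2.07e-06).

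SESN2, a leucine-binding regulator of mTORC1, was at 60.6 CPM in HCT116 replicate 1, 328 and 321 CPM in batch 2, and 41.1, 23.3 and 23.3 CPM in batch 4. Again batch 2 was the highest and batch 4 the lowest, at -3.48 (SE 0.36, edgeR adjusted p = 2.13e-06). TRIB3, a pseudokinase that feeds back on ATF4 and AKT, fell by 2.51 on the log2 scale from batch 2 to batch 4. NIBAN1, a stress-induced protein that influences translation, was at 47.3 CPM in replicate 1, 229 and 165 CPM in batch 2, and 14.4, 10.1 and 6.36 CPM in batch 4. Its highest HCT116 library held 36.1 times the CPM of its lowest, and its batches did not overlap (-4.27, SE 0.38, edgeR adjusted p = 3.71e-07).

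**Figure D2:**
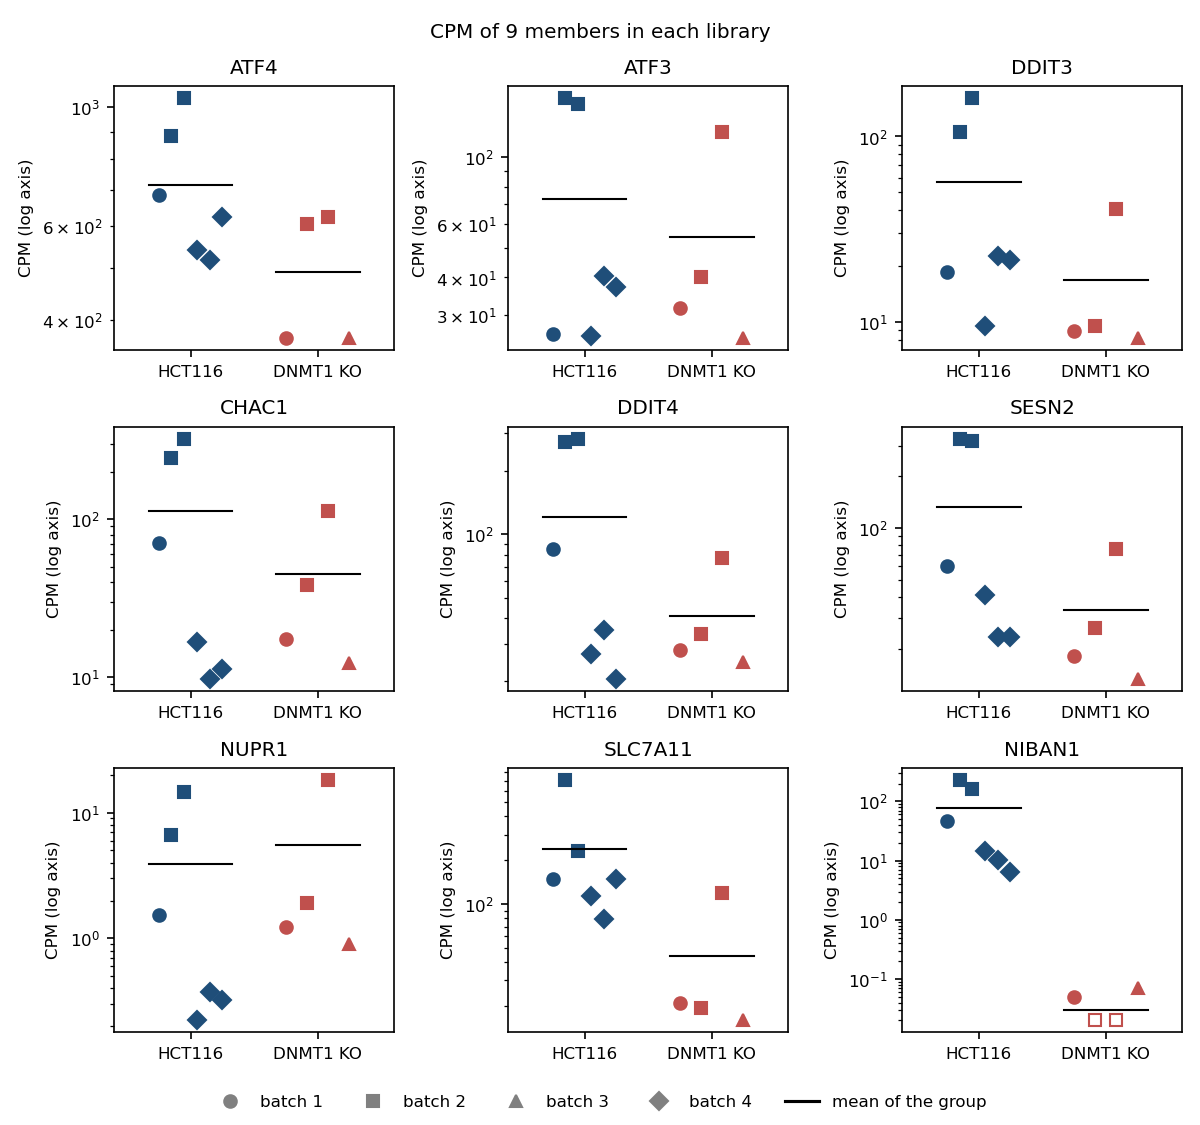
Each panel gives the CPM of 1 of 9 members on a log axis, a point per library, with the shape giving the batch and the line the mean of the group. Open squares are libraries with 0 counts, drawn at 0.02 CPM. The HCT116 batch 2 squares are the highest HCT116 points in every panel, and DNMT1 KO replicate 3, the upper red square, is the highest DNMT1 KO point in every panel but NIBAN1.

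The genes of amino acid and folate metabolism split. Of 9 tested, 6 were called lower in HCT116 batch 4 than in batch 2: ASNS (asparagine synthetase, -2.23), PSAT1 and PHGDH of serine synthesis (-1.33 and -1.56), the mitochondrial enzymes ALDH1L2 (-1.89) and PCK2 (-2.75), and CTH of cysteine synthesis (-1.28). PSPH, the last enzyme of serine synthesis, and the mitochondrial folate enzymes SHMT2 and MTHFD2 had log2 fold changes of -0.25, 0.04 and -0.40 and were not called. SHMT2 was at 387 and 353 CPM in batch 2 and at 511, 349 and 287 CPM in batch 4, so its batches overlapped.

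All 6 amino acid transporter genes were called lower in HCT116 batch 4 than in batch 2, by a median of -1.55 on the log2 scale. SLC7A11, the cystine transporter, was at 147 CPM in replicate 1, 710 and 232 CPM in batch 2, and 114, 78.5 and 148 CPM in batch 4. Replicate 2 held 3.06 times the CPM of replicate 3, the largest such ratio between these libraries among the members, and without replicate 2 the SLC7A11 difference of -2.05 became -1.06 (edgeR adjusted p = 0.107). SLC7A5 and SLC3A2, the light and heavy chains of the leucine transporter, had differences of -1.42 and -1.68. SLC7A1 (cationic amino acids), SLC1A5 (glutamine) and SLC6A9 (glycine) had -1.41, -1.19 and -2.49. Leaving out single libraries ended the calls of SLC7A5 (4 of 6 libraries), SLC7A1 (3), SLC1A5 (3), and PSAT1, GARS1 and CTH (1 each).

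GARS1 and WARS1, which charge tRNA with glycine and tryptophan, were called lower in HCT116 batch 4 than in batch 2 (-1.39 and -1.68), while the tRNA exporter XPOT had -0.65 and was not called. The secreted proteins STC2 and VEGFA and the NKG2D ligand ULBP1 were called lower, by -2.65, -2.51 and -2.15. Against batch 1, which had 1 HCT116 library, 9 members were called higher in batch 2 (ATF3, DDIT3, CHAC1, SESN2, ASNS, NUPR1, STC2, NIBAN1 and VEGFA), beside 0.809% of all genes, and 7 were called lower in batch 4 (DDIT4, CHAC1, PHGDH, CEBPB, NUPR1, NIBAN1 and PCK2), beside 1.6%. The lone batch 1 library is assumed there to vary like the others.

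Per length of exon, SLC7A5 and ATF4 had the highest levels of the members in both lines. In HCT116, SLC7A5 was at 378 ± 194 RPKM and ATF4 at 284 ± 81.9 RPKM (SD, n = 6), followed by PSAT1 at 216 ± 110 RPKM, and these neighbours did not differ beyond their spread. In DNMT1 KO the same genes led at 199 ± 83.7, 196 ± 56.1 and 124 ± 57.7 RPKM (SD, n = 4). At the low end, ASNS, NUPR1 and ALDH1L2 were at 1.57 ± 1.44, 0.694 ± 1.01 and 0.290 ± 0.20 RPKM in HCT116. ASNS shared 49.3% of its exon bases with a long non-coding RNA gene on the same strand, and reads that fall on both are assigned to neither by default, so its level is uncertain. DDIT4 (41.2% of exon bases), MTHFD2 (27.5%), DDIT3 (27.2%, with MARS1), SLC1A5 (23.4%) and ATF5 (19.5%, with NUP62) overlapped genes on the opposite strand, and since strand was not used, reads on those shared bases are treated in the same way.

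Within DNMT1 KO, replicate 3 was the highest of the 4 libraries for 29 of 34 members, beside 36.3% of all genes, and PSPH and SHMT2 were lowest in it. Replicate 2 was from the same batch and did not share this pattern, since the median ratio of replicate 3 to replicate 2 was 2.57 over 33 members, ranging from 0.67 for SHMT2 to 9.46 for NUPR1. ATF3 was at 31.7, 40.2, 121 and 25.1 CPM in replicates 1 to 4, and DDIT3 at 8.94, 9.47, 40.4 and 8.13 CPM. CEBPG, at 619 CPM in replicate 3 and 125 to 178 CPM in the others, exceeded every HCT116 library there. ALDH1L2, at 22.4 CPM against 3.37 to 4.07 CPM, and NUPR1, at 18.2 CPM against 0.904 to 1.92 CPM, did so too. So did ATF5, at 177 CPM against at most 171 CPM in HCT116, and ULBP1, at 90.6 CPM against at most 73.0 CPM. ATF4 itself was at 370, 604, 623 and 370 CPM, so the batch 2 libraries were nearly equal for it. The median SD of log2 CPM over the DNMT1 KO libraries was 0.70 for the members and 0.40 for all genes, and over the HCT116 libraries 1.08 and 0.55.

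Between the lines, in the fit of all 10 libraries with group as the only term, 2 of 34 members were called lower in DNMT1 KO, NIBAN1 and SLC7A11, beside 6.49% of all genes, and 0 of 34 were called higher, beside 7.42%. The share called lower is near that of all genes. At an unadjusted p under 0.05 the edgeR fit held 11 members, of which ALDH1L2 was the one with a positive difference. The matching share of all genes was not computed. DESeq2 called 1 member higher, ALDH1L2, beside 8.45% of all genes. The median member was at -0.79 on the log2 scale and 28 of 34 were negative. Over all genes the median was -0.07, and 10482 of 19279 were negative. In 1 member, NIBAN1, every DNMT1 KO library lay below every HCT116 library, beside 6.79% of all genes, and in 0 of 34 every DNMT1 KO library lay above, beside 8.4%.

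NIBAN1 was close to absent in DNMT1 KO, with 4 counts in its 4 libraries together, 0.051 CPM in replicate 1, 0.070 CPM in replicate 4 and 0 counts in replicates 2 and 3, the latter a limit of 0.053 and 0.048 CPM at 3 counts. HCT116 ran from 6.36 CPM (replicate 9) to 229 CPM (replicate 2), so the groups did not overlap. The lowest HCT116 library held 298 times the pooled DNMT1 KO level (95% exact counting interval 116 to 1094, covering counting error only). The edgeR adjusted p was 9.39e-05. The gene lies at chr1:184790724-184974508 on the minus strand (hg38).

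SLC7A11 was at 20.9, 19.4, 119 and 15.9 CPM in DNMT1 KO replicates 1 to 4 and at 78.5 to 710 CPM in HCT116, with a median of 147 CPM. DNMT1 KO replicates 1, 2 and 4 lay below every HCT116 library, and replicate 3 lay inside the HCT116 range. By edgeR it differed by -2.44 on the log2 scale (SE 0.72, adjusted p = 0.0313). The call was lost on leaving out HCT116 replicate 2 (-1.71, adjusted p = 0.0575) or DNMT1 KO replicate 1, 2 or 4 (-2.24, -2.20 and -2.17, adjusted p = 0.0965, 0.0998 and 0.0909). By edgeR it was also lost with library totals alone as the scaling (-2.22, adjusted p = 0.0502), in batch 2 alone, in batches 1 and 2 without a batch term, without HCT116 batch 2 and with HCT116 batch 4 as the only controls (adjusted p from 0.0573 to 0.113).

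The other transcription factors and effectors did not pass the test between the lines. ATF4 averaged 715 ± 206 CPM over the 6 HCT116 libraries and 492 ± 141 CPM over the 4 DNMT1 KO libraries (± SD), a log2 fold change of -0.54 (SE 0.28, edgeR adjusted p = 0.227), with overlapping groups. ATF3 and DDIT3 had -0.41 (SE 0.60) and -1.75 (SE 0.77), with adjusted p of 0.708 and 0.154. SESN2, DDIT4, CHAC1 and TRIB3 had -1.99, -1.56, -1.31 and -0.78, with SE from 0.60 to 0.96. A positive difference was fitted for ALDH1L2 (1.62, SE 0.59, adjusted p = 0.0807), NUPR1 (0.51), ULBP1 (0.41), ATF5 (0.35), CTH (0.14) and CEBPG (0.03), and none of these passed. Without DNMT1 KO replicate 3, ALDH1L2 was at 0.47 (edgeR adjusted p = 0.623). By role, the median log2 fold change was -0.48 for transcription factors, -1.56 for effectors, -0.60 for amino acid and folate enzymes, -0.92 for transporters, -0.44 for tRNA genes and -0.81 for secreted and surface proteins.

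Within the batches that held both lines, more members were lower in DNMT1 KO. With only the 3 HCT116 and 3 DNMT1 KO libraries of batches 1 and 2 and a batch term in the model, 16 of 34 members were called lower, beside 6.95% of all genes, and 0 were called higher, beside 7.52%. The median member was at -1.19 and 32 of 34 were negative. Of 18987 genes tested both here and in the fit of all 10 libraries, 9063 were negative. In this edgeR fit 22 members, all of them lower, had an unadjusted p under 0.05, and the matching share of all genes was not computed. DESeq2 was not run on these libraries. The members called were the factors DDIT3 (-1.98), CEBPB (-1.47) and JDP2 (-1.38), the effectors DDIT4 (-2.09), CHAC1 (-1.95), SESN2 (-2.36) and NIBAN1, the enzymes PHGDH (-1.56) and PCK2 (-1.25), and WARS1 (-1.19) and STC2 (-1.72). The transporters SLC7A11 (-2.79), SLC7A5 (-1.34), SLC3A2 (-1.37), SLC1A5 (-1.30) and SLC6A9 (-1.63) completed the 16. On the same libraries without the batch term 9 were called lower, beside 6.14% of all genes, and DDIT3, CHAC1, SLC7A11, STC2, JDP2, PCK2 and WARS1 were not. ATF4 was at -0.73 (SE 0.23, edgeR adjusted p = 0.0685). ALDH1L2 and ULBP1 stayed positive at 1.22 and 0.11 without passing.

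Library by library, DNMT1 KO replicate 2 lay below both HCT116 libraries of its batch for 34 of 34 members, beside 38.3% of all genes, and replicate 3, the high DNMT1 KO library, for 27 of 34, beside 35.8%. The exceptions for replicate 3 were ATF5, MTHFD2, CEBPG, NUPR1, ALDH1L2, XPOT and ULBP1. In batch 1, with 1 library of each line, DNMT1 KO lay below HCT116 for 29 of 34 members, beside 50.3% of all genes. In batch 2 alone, with 2 libraries of each line, 4 members were called lower (DDIT4, SESN2, STC2 and NIBAN1), beside 4.08% of all genes, and the median was -1.24.

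The median between the lines moved with the libraries compared, of either line. Leaving out HCT116 batch 4 gave a median of -1.34 with 15 members called lower, beside 7.63% of all genes. Leaving out DNMT1 KO replicate 3 alone gave -1.18. Leaving out HCT116 batch 2 gave -0.02, with 4 of 34 members called higher (ATF5, NUPR1, ALDH1L2 and ULBP1), near the 9.84% of all genes, and NIBAN1 alone called lower, beside 7.2%. Leaving out batch 2 of both lines gave -0.42 with SLC7A11 and NIBAN1 called lower, beside 4.72% of all genes. With HCT116 batch 4 as the only controls, which shares no batch with DNMT1 KO, the median was 0.37, and 6 of 34 members (ATF5, CHAC1, NUPR1, ALDH1L2, PCK2 and ULBP1) were called higher, beside 12.3% of all genes, while NIBAN1 was called lower, beside 8.64%. Line and batch cannot be told apart in that last comparison. The settings without batch 2 and with batch 4 alone were chosen after the data were seen.

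**Figure D3:**
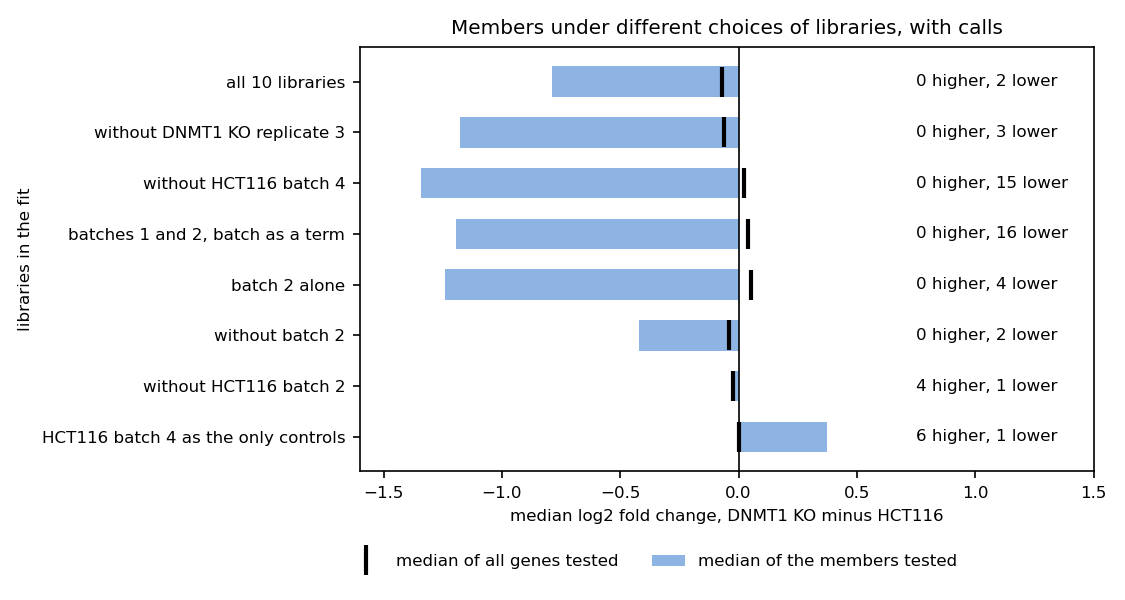
Bars give the median log2 fold change (DNMT1 KO minus HCT116) of the members tested under 8 choices of libraries, black ticks the median of all genes tested, and the text the members called. The bars run from -1.34 without HCT116 batch 4 to 0.37 with HCT116 batch 4 as the only controls, and the ticks stay near 0.

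The difference between the lines was also compared between batches 1 and 2 by an interaction term. By edgeR, 0 of 34 members were called, beside 0% of all 21113 genes. NIBAN1 was the 1 member with an unadjusted p under 0.05 (adjusted p = 1.00). NIBAN1 held 2 counts in the DNMT1 KO library of batch 1 and 0 in both of batch 2. Its interaction value therefore rests on DNMT1 KO counts under the floor of 3 counts. The interaction fit left 2 residual degrees of freedom, and DESeq2 was not run on it.

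**Figure D4:**
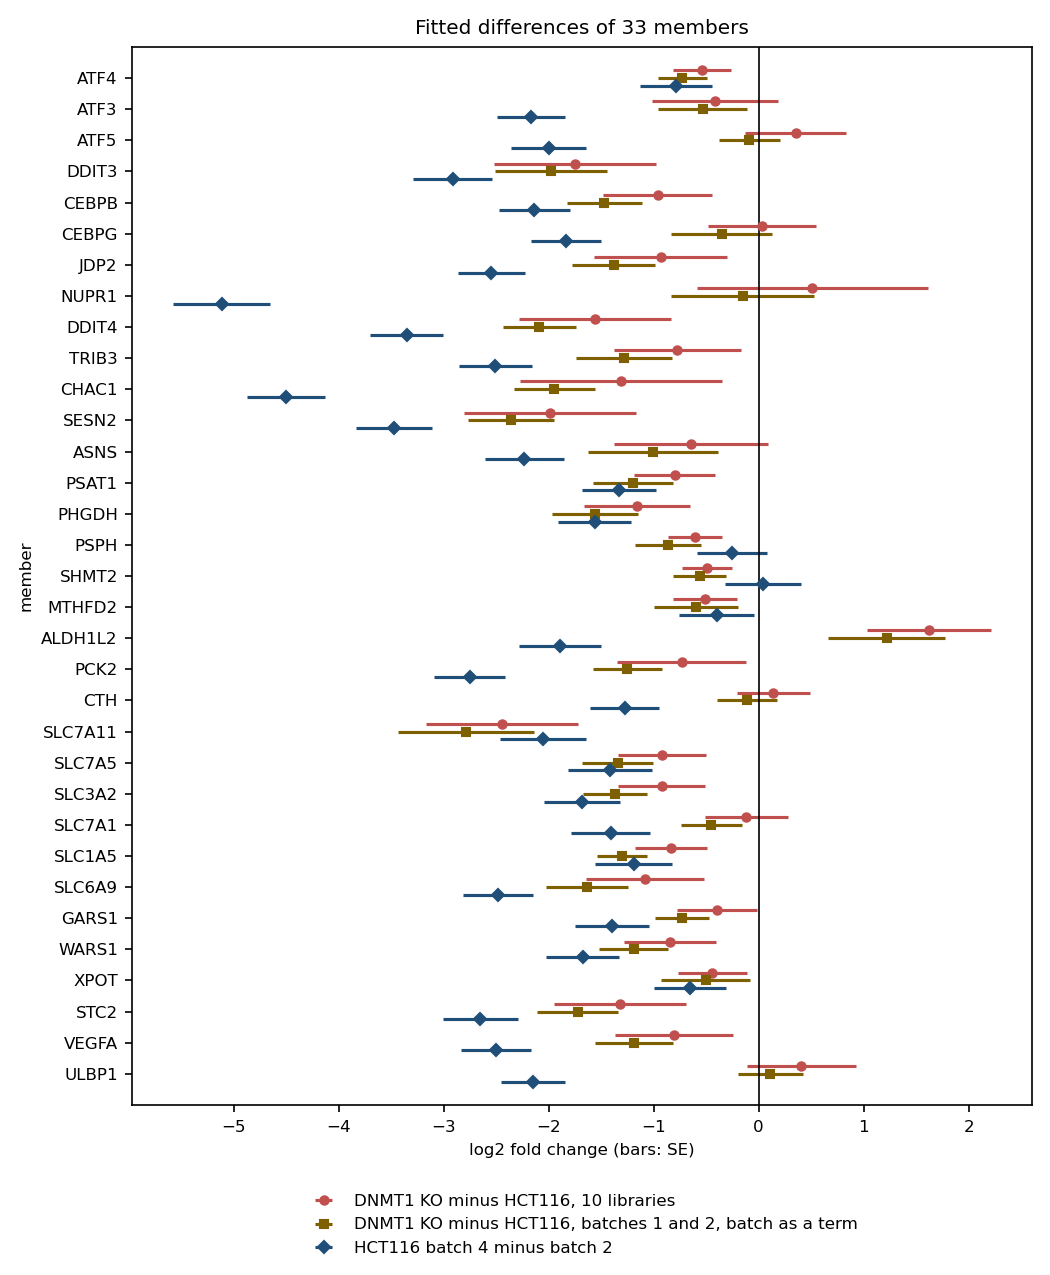
Log2 fold changes of 33 members, with bars giving the SE, for DNMT1 KO minus HCT116 in all 10 libraries, the same in batches 1 and 2 under a model with a batch term, and HCT116 batch 4 minus batch 2. NIBAN1, off the scale at -11.64 and -13.20 between the lines, is left out. The batch difference within HCT116 is further from 0 than the difference between the lines in all 10 libraries for 29 of the 33, and the comparisons share HCT116 libraries. The fit of all 10 libraries takes HCT116 batches 2 and 4 together, and the matching share of all genes was not computed.

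Genes around the pathway were described from lists made with earlier results of these data known. Of 38 other reported ATF4 and CHOP targets tested, 18 were called lower in HCT116 batch 4 than in batch 2 by edgeR, beside 8.4% of all genes, with a median log2 fold change of -1.01. The largest were FGF21 (-5.78) and GDF15 (-3.02), stress hormones, and CLGN (-2.70), a chaperone. FGF21 was low, at 1.96 and 3.61 CPM in batch 2 and 0.031 to 0.058 CPM in batch 4. The batch 4 values lay near the floor of 3 counts (0.035 to 0.046 CPM), so the size of its change is uncertain. GDF15 was at 785 and 1036 CPM in batch 2 and at 63.8 to 188 CPM in batch 4. Between the lines 1 of the 38 was called by edgeR, beside 6.49% of all genes called lower. It was MARS1, the methionine tRNA synthetase, lower in DNMT1 KO (-1.16, edgeR adjusted p = 0.00943), and the median of the 38 was -0.38. DESeq2 called 2 lower, and 7 were lower at an unadjusted p under 0.05 by edgeR. In batches 1 and 2 under a batch term, edgeR called 6 of the 38 lower, beside 6.95% of all genes, and 0 higher, with a median of -0.51. Because MARS1 overlaps DDIT3 on the opposite strand, reads on the shared bases are by default assigned to neither, so both counts may be too low.

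Of 20 upstream kinases and eIF2 genes tested, 2, near the 8.4% of all genes, were called lower in HCT116 batch 4 than in batch 2, PPP1R15A (GADD34, which directs eIF2 dephosphorylation, -2.59) and EIF2AK3 (PERK, -1.06), and the median was 0.16. Between the lines 1 of the 20 was called higher in DNMT1 KO, beside 7.42% of all genes, and 0 were called lower, beside 6.49%. The gene was EIF2AK2 (PKR, the kinase that senses double-stranded RNA), with a log2 fold change of 1.70 (edgeR adjusted p = 0.0026). It was at 353 ± 260 CPM (SD, n = 4) in DNMT1 KO against 109 ± 16.4 CPM (SD, n = 6) in HCT116. DNMT1 KO replicate 3 held 738 CPM and the other DNMT1 KO libraries 178 to 276 CPM.

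Targets of XBP1 and ATF6, the other arms of the unfolded protein response, had 7 of 26 called lower and 1 higher in HCT116 batch 4 than in batch 2. The shares of all genes were 8.4% lower and 8.72% higher, and the median of the 26 was -0.43. ERN1 (IRE1, -2.30), HSPA5 (BiP, -1.90) and ATF6 (-1.67) had the largest changes, and HSPA5 was at 5222 and 5984 CPM in batch 2, 1205 to 1890 CPM in batch 4 and 1033 CPM in batch 1. Between the lines 0 of the 26 were called by edgeR, beside 7.42% of all genes higher and 6.49% lower, and 0 by DESeq2. By edgeR 3 were lower at an unadjusted p under 0.05, and the median was -0.30. The 16 other cytosolic tRNA synthetases tested had 2 called lower in batch 4 (AARS1, -2.09, and SARS1, -1.42), a median of -0.10, and MARS1 called lower between the lines. Of the 18 in that list, 10 are also among the ATF4 and CHOP targets. NRF2 targets, the oxidative stress genes, had 2 of 18 called lower in DNMT1 KO (TKT and ABCC2), and in HCT116 batch 4 2 called lower and 2 higher than in batch 2. The tRNA synthetase and NRF2 counts are near the shares of all genes called (8.4% lower and 8.72% higher in batch 4, 6.49% lower in DNMT1 KO). Hypoxia (HIF) targets had 2 of 20 called lower in DNMT1 KO (ADM and EGLN3), beside 6.49% of all genes. In batches 1 and 2 under a batch term edgeR called 4 of the 20 lower, beside 6.95% of all genes, and 0 higher. In HCT116 batch 4, 4 were called lower and 1 higher than in batch 2, beside 8.4% and 8.72%, with NDRG1 at -3.14.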

How the data were processed

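Poly(A)-selected, stranded, paired-end RNA-seq libraries of 6 HCT116 and 4 DNMT1 KO cultures were used. The authors trimmed reads with Trim Galore 0.4.1, aligned them without splicing to hg38 (Bowtie2), removed reads of low mapping quality and counted exonic reads per gene with featureCounts without a strand option. The authors deposited unnormalised counts, one table of genes per library. The annotation release is not given in the sources used here. Gene names and coordinates came from GENCODE on hg38, and overlaps were computed from the exon positions that the authors deposited with the counts. A further 3 HCT116 tables have no sample in the series' list and were not used.

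Low counts (1 to 10) were even in 64.4 to 70.0% of genes in 9 libraries and in 39.9% in DNMT1 KO replicate 4, so mates may have been counted separately in those 9, and counting intervals and floors (3 counts) cover counting error only and may be too narrow. Halving those counts was an alternative.

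Tests used edgeR 4.0.16 under R 4.3.3 (TMM, filterByExpr, quasi-likelihood F test, two-sided) over all genes that passed the filter, with Benjamini-Hochberg adjustment, after the scripts were tested on simulated data. Calls needed an adjusted p under 0.05 together with a change of more than 1 on the log2 scale. SE is the size of the log2 fold change divided by the square root of F. CPM and RPKM use TMM-scaled totals. Fits were group alone (10 libraries), batch in the 6 HCT116 libraries, group with batch in batches 1 and 2, and their interaction. DESeq2 1.42.0, other scalings, filters, batches left out, a replicate block and libraries left out singly were alternatives. By rule every member was named, with values per library for members called between the lines, the 6 called with the largest range of fitted HCT116 batch means, ATF4, ATF3 and DDIT3. DNMT1 was named as the targeted gene, and up to 3 called genes of each of 10 other lists by size of change. Library values of other genes and members were added after they were seen. The members and lists were chosen with earlier results of these data known. P-values measure the spread between these cultures of the same lines. Shares of all genes at an unadjusted p under 0.05 were not computed for any fit. Promoter windows came from the RefSeq table (GRCh38.p14), for 30 of 36 members.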

Additional observations from a re-analysis of the deposited data

Results flagged for a closer look

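A library lay far from the rest of its group in 17 of 70 groups of values examined (35 members in each line). The rule is set to mark about 1 in 20 groups of independent, normally distributed values. That rate was not checked for CPM values, and the HCT116 group joins several batches. The share of all genes marked by the rule was not computed, so the 17 were not weighed against chance. In 14 of the 17 groups the library marked was DNMT1 KO replicate 3, above the 3 other DNMT1 KO libraries. In CPM, this library held ATF3 121 (others 25.1 to 40.2), DDIT3 40.4 (others 8.13 to 9.47), TRIB3 370 (others 86.7 to 125), ASNS 13.6 (others 1.44 to 2.85), SLC7A11 119 (others 15.9 to 20.9), SLC3A2 491 (others 254 to 292) and SLC7A1 622 (others 288 to 317). It further held CEBPG 619 (others 125 to 178), NUPR1 18.2 (others 0.904 to 1.92), STC2 209 (others 69.5 to 90.1), JDP2 41.95 (others 7.05 to 12.9), ALDH1L2 22.4 (others 3.37 to 4.07), WARS1 225 (others 96.2 to 115) and VEGFA 142 (others 60.9 to 71.8). Members of 1 pathway move together, so these 14 are not independent of each other. The 3 others were HCT116 replicate 2, at 908 CPM for MTHFD2 (others 478 to 591), 710 CPM for SLC7A11 (others 78.5 to 232) and 313 CPM for XPOT (others 134 to 177). No cause was tested. The total counts of DNMT1 KO replicate 3 (55732013) were the highest of its group. EIF2AK2 was also highest there (738 CPM, others 178 to 276), as were 36.3% of all genes.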

How the results depend on the processing

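Across HCT116 batches, 29 of 35 members were called different and 29 lower in batch 4 under the main settings, and these counts stayed at 28 to 29 under the other scalings, filters, halved counts and DESeq2, at 21 to 29 and 24 to 29 on leaving out single HCT116 libraries, and 0 were called higher in batch 4 throughout. The edgeR interaction called 0 members under each scaling and filter, with 0 to 3 at an unadjusted p under 0.05. Between the lines, members called higher (0) and lower (2) became 1 and 5 without a filter, 1 and 2 with DESeq2, 0 and 1 with library totals alone (which moved the median of all genes from -0.07 to 0.14, and all genes called from 1431 higher and 1251 lower to 1878 and 956), 0 and 1 with at least 10 counts in every library (a filter that NIBAN1 did not pass), 0 and 16 in batches 1 and 2 under a batch term, 0 and 4 in batch 2 alone and 0 and 15 without HCT116 batch 4. Leaving out single libraries gave 0 to 1 higher, 1 to 3 lower and a median of -1.18 to -0.47. The added settings, chosen after seeing the data, gave 4 and 1 without HCT116 batch 2, 0 and 2 without batch 2 of both lines, 6 and 1 with HCT116 batch 4 as the only controls (median reversed to 0.37) and 0 and 9 in batches 1 and 2 without a batch term. With a replicate block over replicates 1 to 3 there were 0 and 15, the 16 of the batch term less WARS1 (edgeR adjusted p = 0.0603). Deviations of same-numbered libraries from their group means correlated across genes at 0.53, -0.304 and 0.229, and 3 of the 6 libraries correlated best with their own number, so the numbers were not taken to pair the samples.

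Members that did not pass between the lines changed sign as follows (log2 fold change). With HCT116 batch 4 as the only controls the values were ATF3 0.70, DDIT4 0.61, TRIB3 0.77, CHAC1 1.88, SESN2 0.23, ASNS 0.49, SLC7A1 0.61, SLC6A9 0.42, CEBPB 0.41, STC2 0.20, JDP2 0.58, PCK2 1.11, GARS1 0.34 and VEGFA 0.60. Without HCT116 batch 2 they were ATF3 0.79, DDIT4 0.00098, TRIB3 0.23, CHAC1 0.77, ASNS 0.61, SLC7A1 0.47, STC2 0.089, JDP2 0.21, PCK2 0.17, GARS1 0.17 and VEGFA 0.50. Without batch 2 of both lines they were SLC7A1 0.093 and VEGFA 0.10. Batches 1 and 2 under a batch term gave ATF5 -0.088, CEBPG -0.35, NUPR1 -0.15 and CTH -0.11. The same libraries without that term gave ATF5 -0.11, CEBPG -0.35, NUPR1 -0.087 and CTH -0.13. Batch 2 alone gave ATF5 -0.15, CEBPG -0.36, NUPR1 -0.074, CTH -0.39 and ULBP1 -0.075. Without HCT116 batch 4 they were ATF5 -0.26, CEBPG -0.55, NUPR1 -0.44, CTH -0.31 and ULBP1 -0.23. With the replicate block they were ATF5 -0.13, CEBPG -0.61, NUPR1 -0.59 and CTH -0.11. Library totals alone gave SLC7A1 0.10, and SHMT2 -0.022 between HCT116 batches. Leaving out single libraries gave ranges of -0.039 to 0.75 for ATF5, -0.77 to 0.35 for CEBPG, -1.53 to 1.64 for NUPR1, -0.44 to 0.13 for SLC7A1 and -0.11 to 0.77 for ULBP1, and between HCT116 batches -0.74 to 0.031 for MTHFD2, -0.60 to 0.20 for PSPH and -0.25 to 0.21 for SHMT2. The causes were not tested, beyond which libraries each setting holds. NIBAN1 was called lower in each setting in which it was tested.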
